A study of Homo sapiens with 72 samples.

Results

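The genes of homologous recombination and of the Fanconi anaemia pathway were followed through 4 lines of HEK293 cells after ultraviolet (UV) irradiation. The set was a list of 32 gene names, matched by symbol to the deposited count table. All 32 were found among its 19324 genes, and all 32 passed the filter on low counts that left 15470 genes for testing. The rule itself uses no measured value.

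Homologous recombination repairs a broken chromosome by copying the sister DNA molecule, and it works mainly in S and G2 phase. Break ends are cut back to single strands, BRCA1, BRCA2 and their partners prepare these for pairing with the sister molecule, and helicases and nucleases resolve the joined molecules. The Fanconi pathway removes crosslinks between DNA strands: a core complex with a ubiquitin ligase marks the FANCD2-FANCI clamp, which brings in nucleases and hands the break to recombination. UV light makes bulky lesions that stall RNA polymerase II and replication forks, and forks that break are handled by these pathways. ATR is the checkpoint kinase that responds to stalled forks.

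The cells were HEK293 Flp-In T-REx, a transformed human embryonic kidney line, and their polyadenylated RNA was sequenced. The lines were a knockout of CSB (CSB_KO), a pair of STK19 knockouts (STK19_KO1 and STK19_KO2) and the unedited line (WT). CSB, encoded by ERCC6, starts transcription-coupled repair at stalled RNA polymerase II, and STK19 has been placed in the same repair pathway. Each line was sampled untreated (0 h), 3 h after UV, and after UV at 4 h and 20 h with either ATRi, which is VE-821 at 3 µM dissolved in DMSO, or DMSO alone. With 3 libraries per group, the 24 groups made 72 libraries. The study asked what inhibition of ATR does to transcription after UV. The labels name 1 CSB_KO line, so clone and knockout cannot be told apart there, and WT was the sole unedited line. The labels leave it unsettled whether 4 h and 20 h run from UV or from the addition of ATRi, and they do not state the UV dose. Every group later than 0 h was irradiated, so UV, time in culture and solvent cannot be told apart in a comparison with 0 h.

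Libraries held 36.5 to 212.9 M counts, with a median of 56.3 M. ERCC6 stood lower in CSB_KO than in WT at 0 h, by -1.77 ± 0.08 on the log2 scale (edgeR, adjusted p = 4.01e-27). STK19 RNA did not pass the test in STK19_KO1 (-0.12, edgeR, adjusted p = 0.187) or STK19_KO2 (-0.15, edgeR, adjusted p = 0.0882), so it does not check those labels. Of 10 genes that mark HEK293 cells, 9 had at least 1 CPM, a count per M counts of the library, in WT at 0 h, and STMN2 was below 0.1 CPM in every group. Lists of 8 markers each for squamous epithelium, kidney tubule, blood and fibroblasts had 1 gene each at that level there (KRT10, LRP2, CD68 and COL1A1). In 5 groups 1 library lay apart from the others: replicate 1 of WT (0 h, 3 h and 4 h DMSO), and in STK19_KO1 replicate 3 (3 h) and replicate 1 (4 h ATRi). Counts of genes that move by more than 1.5 times without these 5 libraries are given beside the result. Levels are CPM scaled by TMM factors, changes are log2 fold changes ± standard error, and a gene was called at an adjusted p under 0.05 over all genes tested. All are relative abundances in bulk RNA, in which fewer cells of a cell cycle phase and less RNA per cell cannot be told apart.

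The genes differ in length, and their spans in the deposited GRCh38 table ran from 3.29 kb for FANCF, an adaptor of the core complex, to 328 kb for FANCC, another core subunit, with a median of 69.1 kb. RefSeq starts give distances shorter by over 40 kb for 3 genes. BRCA1 (chromosome 17, 43044295 to 43170245, deposited as 126 kb) covers 81.1 or 126 kb by its start, RBBP8 (deposited as 228 kb) 92.6 or 93.2 kb, and FANCC (chromosome 9, 95099054 to 95426796) 218 or 219 kb. MUS81, deposited as 10.5 kb, covers 7.22 kb, and the other differences were under 2 kb. Some exons are shared with other genes in GENCODE release 29. On the same strand, AC116366.3 covers 79.7% of the exon bases of RAD50 and FSBP covers 59.1% of those of RAD54B, so counts of these genes are uncertain. On the opposite strand, KLC1 covers 76.7% of the exon bases of XRCC3, LRRC41 25.1% of RAD54L, ZNF276 23.6% of FANCA and VRK2 18.7% of FANCL. The library kit keeps the strand, but the labels do not say which strand setting the counting used.

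In WT at 0 h, levels per kb of exon ran from 35.9 CPM per kb for UBE2T, the ubiquitin-conjugating enzyme of the pathway, to 1.53 CPM per kb for RAD51D, a homologous recombination protein that pairs with XRCC2. FANCI, a subunit of the clamp that the pathway ubiquitylates, had 31.3 CPM per kb and the exonuclease EXO1 25.8 CPM per kb. BRCA1 stood at 13.1 CPM per kb and its partner BARD1 at 3.73 CPM per kb, while BRCA2 was among the lowest at 2.67 CPM per kb.

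Before irradiation the knockouts differed from WT in some of the genes. In CSB_KO, 5 of 32 were higher (19.1% of all tested genes were) and 1 was lower (15.7%). In STK19_KO1, 10 were higher (29.5%) and 6 lower (19.2%), and in STK19_KO2, 6 were higher (26.6%) and 11 lower (20.7%). The STK19_KO1 counts lay near the shares of all genes. SLX4 and EXO1 were higher in all 3 knockouts. The 3 comparisons share their WT libraries, and the share of all genes called in all 3 knockouts was not counted. SLX4, the scaffold of the repair nucleases, had 25.5, 24.8 and 26.2 CPM in CSB_KO, 30.6, 30.1 and 29.3 CPM in STK19_KO1 and 31.9, 34.2 and 31.2 CPM in STK19_KO2, against 17.7, 19.8 and 18.6 CPM in WT. Every knockout library lay above every WT library, and the changes were 0.44 ± 0.10, 0.68 ± 0.10 and 0.79 ± 0.10 in that order (edgeR, adjusted p = 2.97e-04 or less). RBBP8, which starts the resection of break ends, had 105, 109 and 104 CPM in STK19_KO1 and 91.9, 93.3 and 92.2 CPM in STK19_KO2, against 71.7, 58.6 and 56.7 CPM in WT. It rose in both STK19 lines, by 0.77 ± 0.07 and 0.57 ± 0.07 (edgeR, adjusted p = 1.03e-09 or less), and its CSB_KO libraries, at 64.9, 63.7 and 63.6 CPM, lay within the range of WT.

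FANCF stood lower in the STK19 lines, with 9.28, 8.85 and 10.03 CPM in STK19_KO1 and 8.07, 9.97 and 9.40 CPM in STK19_KO2, against 14.4, 14.6 and 15.02 CPM in WT. Its changes were -0.64 ± 0.09 and -0.68 ± 0.09 (edgeR, adjusted p = 4.37e-08 or less), and in CSB_KO its 14.8, 15.04 and 11.97 CPM overlapped WT. FAAP24, which anchors the core complex to DNA with FANCM, was the sole gene of the 32 that was lower in all 3 knockouts. It had 14.4, 15.7 and 15.4 CPM in CSB_KO, 16.8, 15.2 and 15.8 CPM in STK19_KO1 and 14.6, 16.1 and 16.3 CPM in STK19_KO2, against 20.5, 18.7 and 19.7 CPM in WT, with no overlap between any knockout and WT (edgeR, adjusted p = 6.30e-05 or less). BRCA1 changed by -0.57 ± 0.06 in STK19_KO1 and by -0.18 ± 0.06 in STK19_KO2, and BLM, a helicase that takes joined molecules apart, changed by -0.60 ± 0.06 in STK19_KO2. Without the libraries that lay apart, CSB_KO had 9 higher and 3 lower genes, and with size factors scaled by library totals alone STK19_KO1 had 4 higher and 7 lower, or 6 and 6 with RLE factors. RLE factors gave 5 higher and 2 lower in CSB_KO, and fits of only the groups compared gave 2 higher in CSB_KO and 3 in STK19_KO1. The higher count in CSB_KO was 8 without replicate 1 of every group, with 3 lower, and 2 and 3 without replicates 2 and 3. In STK19_KO1 it was 5 without replicate 2 and 3 without replicate 3, and in STK19_KO2 3 without replicate 2.

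At 3 h after UV, more of the 32 genes fell than rose in every line. The count was 6 higher (32% of all genes tested) and 18 lower (29.3%) in CSB_KO, 3 higher (29.9%) and 18 lower (30.6%) in STK19_KO1, 7 higher (29.1%) and 18 lower (28.5%) in STK19_KO2, and 5 higher (33.6%) and 14 lower (28.8%) in WT. The median change of the 32 genes was -0.23 in CSB_KO, -0.26 in STK19_KO1, -0.20 in STK19_KO2 and -0.10 in WT, while the median of all genes lay at 0.06, 0.03, 0.05 and 0.06. Called lower in all 4 lines were 13 genes, where 20.4% of all tested genes were: BARD1, BLM, BRCA1, BRCA2, BRIP1, FANCC, FANCM, NBN, RAD54B, RAD54L, RBBP8, SLX4 and XRCC2. FAAP24, FANCG and XRCC3 were called higher in all 4, where 18.5% of all tested genes were, though with library totals alone FANCG in WT was at -0.040. In a fit of only the groups compared, WT had 1 higher gene, and neither FANCG (0.12, edgeR, adjusted p = 0.384) nor XRCC3 (0.34, edgeR, adjusted p = 0.201) was called there. The count of higher genes was 5 in STK19_KO1 without replicate 1 of every group and 4 in STK19_KO2 without replicate 3, and DESeq2 called 8 in WT.

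BARD1, the partner of BRCA1 in a ubiquitin ligase, fell by over 1 log2 unit in every line. It had 8.15, 8.15 and 9.31 CPM in CSB_KO at 3 h, against 19.1, 21.3 and 17.9 CPM at 0 h, and 10.1, 9.04 and 8.53 CPM in WT at 3 h, against 24.1, 21.7 and 21.99 CPM at 0 h. Its means were 9.69 ± 1.14 CPM at 3 h in STK19_KO1, against 22.6 ± 1.05 CPM at 0 h, and 10.1 ± 0.977 CPM at 3 h in STK19_KO2, against 20.6 ± 1.26 CPM at 0 h (SD, n = 3 each). The 3 h libraries lay below all 0 h libraries of the same line. The changes were -1.19 ± 0.10 in CSB_KO, -1.22 ± 0.10 in STK19_KO1, -1.03 ± 0.10 in STK19_KO2 and -1.29 ± 0.10 in WT (edgeR, adjusted p = 2.19e-13 or less).

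BLM fell in all 4 lines. It had 37.4, 34.2 and 35.3 CPM in CSB_KO at 3 h, against 73.6, 72.7 and 71.97 CPM at 0 h, and 41.3, 35.6 and 34.9 CPM in WT at 3 h, against 80.3, 71.5 and 73.5 CPM at 0 h. STK19_KO1 had 38.5 ± 2.56 CPM at 3 h, against 79.7 ± 1.47 CPM at 0 h, and STK19_KO2 24.3 ± 0.816 CPM, against 49.7 ± 0.421 CPM (SD, n = 3 each). The 3 h and 0 h libraries did not overlap in any line, and the changes were -1.03 ± 0.06 in CSB_KO, -1.05 ± 0.06 in STK19_KO1, -1.03 ± 0.06 in STK19_KO2 and -1.01 ± 0.06 in WT (edgeR, adjusted p = 4.37e-22 or less). FANCM, the DNA translocase that anchors the core complex, changed by -0.99 in CSB_KO, -0.99 in STK19_KO1, -0.78 in STK19_KO2 and -1.17 in WT. RAD54B, a motor protein that acts on DNA during recombination, changed by -0.84 in CSB_KO, -1.10 in STK19_KO1, -1.001 in STK19_KO2 and -0.68 in WT.

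FAAP24 moved the other way to its partner FANCM. It had 22.01, 21.3 and 21.8 CPM in CSB_KO at 3 h, against 14.4, 15.7 and 15.4 CPM at 0 h, and 35.1, 33.4 and 34.2 CPM in WT at 3 h, against 20.5, 18.7 and 19.7 CPM at 0 h. STK19_KO1 had 31.2 ± 4.31 CPM at 3 h, against 15.9 ± 0.797 CPM at 0 h, and STK19_KO2 29.2 ± 0.642 CPM, against 15.6 ± 0.954 CPM (SD, n = 3 each). In each line the 3 h libraries lay above the 0 h libraries, and the changes were 0.52 ± 0.06 in CSB_KO, 0.97 ± 0.06 in STK19_KO1, 0.90 ± 0.06 in STK19_KO2 and 0.80 ± 0.06 in WT (edgeR, adjusted p = 2.48e-10 or less). FAAP24 spans 6.02 kb and FANCM 65.0 kb.

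XRCC3, which pairs with RAD51C, rose less. It had 106, 119 and 106 CPM in CSB_KO at 3 h, against 78.95, 80.6 and 80.8 CPM at 0 h, and 85.5, 127 and 127 CPM in WT at 3 h, against 69.3, 95.6 and 96.2 CPM at 0 h. The lowest value of each WT group belongs to its library that lay apart, and the WT groups overlapped, while the CSB_KO groups did not. STK19_KO1 had 117 ± 10.7 CPM at 3 h, against 85.7 ± 6.14 CPM at 0 h, and STK19_KO2 114 ± 2.77 CPM, against 92.3 ± 2.59 CPM (SD, n = 3 each). The changes were 0.46 ± 0.09 in CSB_KO, 0.45 ± 0.09 in STK19_KO1, 0.30 ± 0.09 in STK19_KO2 and 0.38 ± 0.09 in WT (edgeR, adjusted p = 0.00273 or less).

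By role, the BRCA proteins and partners mostly fell. Of these 5 genes, 5 fell in CSB_KO and 4 in each of the other lines. Beside this and the role counts that follow, 29.3% of all genes were called lower in CSB_KO, 30.6% in STK19_KO1, 28.5% in STK19_KO2 and 28.8% in WT, and 29.1% to 33.6% were called higher. The exception outside CSB_KO was PALB2, which links BRCA1 to BRCA2. PALB2 had 16.1, 14.6 and 14.8 CPM in CSB_KO at 3 h, against 30.1, 29.4 and 28.7 CPM at 0 h, and 26.3, 24.3 and 23.2 CPM in WT at 3 h, against 29.3, 23.7 and 24.4 CPM at 0 h. The change was -0.96 ± 0.07 (edgeR, adjusted p = 7.31e-19) in CSB_KO, and it was -0.01 in STK19_KO1, 0.02 in STK19_KO2 and -0.07 in WT, none of which passed the test. The difference between CSB_KO and WT was itself called, at -0.89 ± 0.09 (edgeR, adjusted p = 2.72e-10). BRCA1 changed by -0.25 in CSB_KO, -0.52 in STK19_KO1, -0.43 in STK19_KO2 and -0.30 in WT, and BRCA2 by -0.29 in CSB_KO, -0.44 in STK19_KO1, -0.31 in STK19_KO2 and -0.51 in WT, all called. BRIP1, a helicase bound to BRCA1, changed by -0.61 in CSB_KO, -0.88 in STK19_KO1, -0.78 in STK19_KO2 and -0.71 in WT.

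Among the 6 genes of break ends, resection and dissolution, 4 fell in CSB_KO, 6 in each STK19 line and 3 in WT. RBBP8 changed by -0.66 in CSB_KO, -0.93 in STK19_KO1, -0.92 in STK19_KO2 and -0.39 in WT. RAD50 and MRE11, subunits of the complex that senses break ends, changed in the STK19 lines by -0.31 and -0.22 in STK19_KO1 and by -0.20 and -0.20 in STK19_KO2. In CSB_KO their changes were 0.06 and 0.03, and in WT 0.13 and 0.14, none of them called. NBN, the third subunit, fell in all lines, with changes of -0.22 to -0.45. EXO1 changed by -0.47 in CSB_KO, -0.37 in STK19_KO1, -0.25 in STK19_KO2 and -0.09 in WT, and the WT value did not pass the test.

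The 10 genes of the Fanconi core complex, its anchor and its ubiquitin-conjugating enzyme split: CSB_KO had 4 higher and 4 lower, STK19_KO1 2 and 4, STK19_KO2 4 and 3, and WT 3 and 2. FANCG, an adaptor of the core, rose by 0.20 in CSB_KO, 0.26 in STK19_KO1, 0.36 in STK19_KO2 and 0.16 in WT. FANCE, which binds FANCD2, changed by -0.39 in CSB_KO and rose by 0.31 in STK19_KO2. FANCD2 was not called in any line, with changes between -0.12 and 0.12, and FANCI changed by 0.13 in CSB_KO and 0.15 in WT, both called, though with library totals alone the WT value of FANCI was -0.055. SLX4 was the sole nuclease gene that fell in all lines, and the changes were -0.45 in CSB_KO, -0.49 in STK19_KO1, -0.39 in STK19_KO2 and -0.78 in WT. MUS81, whose nuclease partner is EME1, rose by 0.39 in STK19_KO2, and EME1 changed by -0.41 in CSB_KO and rose by 0.16 in STK19_KO2.

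The DMSO groups at 4 h gave nearly the same picture against 0 h. There were 6 higher (33.6%) and 18 lower (30.2%) genes in CSB_KO, 3 (27.9%) and 15 (30%) in STK19_KO1, 6 (31.6%) and 18 (29.8%) in STK19_KO2, and 6 (35.0%) and 16 (31.3%) in WT. The 3 h and 4 h comparisons share their 0 h libraries. BARD1 changed by -1.43 ± 0.11 in CSB_KO, -1.05 ± 0.10 in STK19_KO1, -1.07 ± 0.10 in STK19_KO2 and -1.35 ± 0.10 in WT, with 8.58, 6.88 and 6.04 CPM in CSB_KO and 10.2, 7.97 and 8.46 CPM in WT at 4 h. BLM changed by -1.18 ± 0.06 in CSB_KO, -1.02 ± 0.06 in STK19_KO1, -1.08 ± 0.06 in STK19_KO2 and -1.20 ± 0.06 in WT, with 32.9, 30.9 and 32.8 CPM in CSB_KO and 35.03, 31.1 and 31.8 CPM in WT. FAAP24 had 21.03, 23.5 and 22.01 CPM in CSB_KO and 35.1, 36.1 and 33.9 CPM in WT, with changes of 0.54 ± 0.06 in CSB_KO, 0.90 ± 0.06 in STK19_KO1, 0.81 ± 0.06 in STK19_KO2 and 0.83 ± 0.06 in WT. XRCC3 had 109, 117 and 118 CPM in CSB_KO and 124, 147 and 154 CPM in WT, with changes of 0.52 ± 0.09 in CSB_KO, 0.46 ± 0.09 in STK19_KO1, 0.36 ± 0.09 in STK19_KO2 and 0.70 ± 0.09 in WT. All of these lay beyond the 0 h libraries of their line, and each change passed the test (edgeR, adjusted p = 3.26e-04 or less).

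Scaling by library totals alone moved the median of all genes by between -0.371 and 0.262 log2 units over the comparisons, and it changed the split of these early counts. It gave 3 higher and 21 lower genes at 3 h in CSB_KO and 2 higher and 22 lower in WT, and 3 and 23 in CSB_KO and 2 and 24 in WT at 4 h. BARD1, BLM, BRIP1, FANCM, RAD54B and XRCC2 were among the genes that kept their direction at 3 h and 4 h in all lines under every alternative run. Of the called changes at these times, only those of FANCI and FANCG turned sign, all with library totals alone. FANCI at 4 h was then at -0.0060 in CSB_KO and -0.085 in WT.

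**Figure D1:**
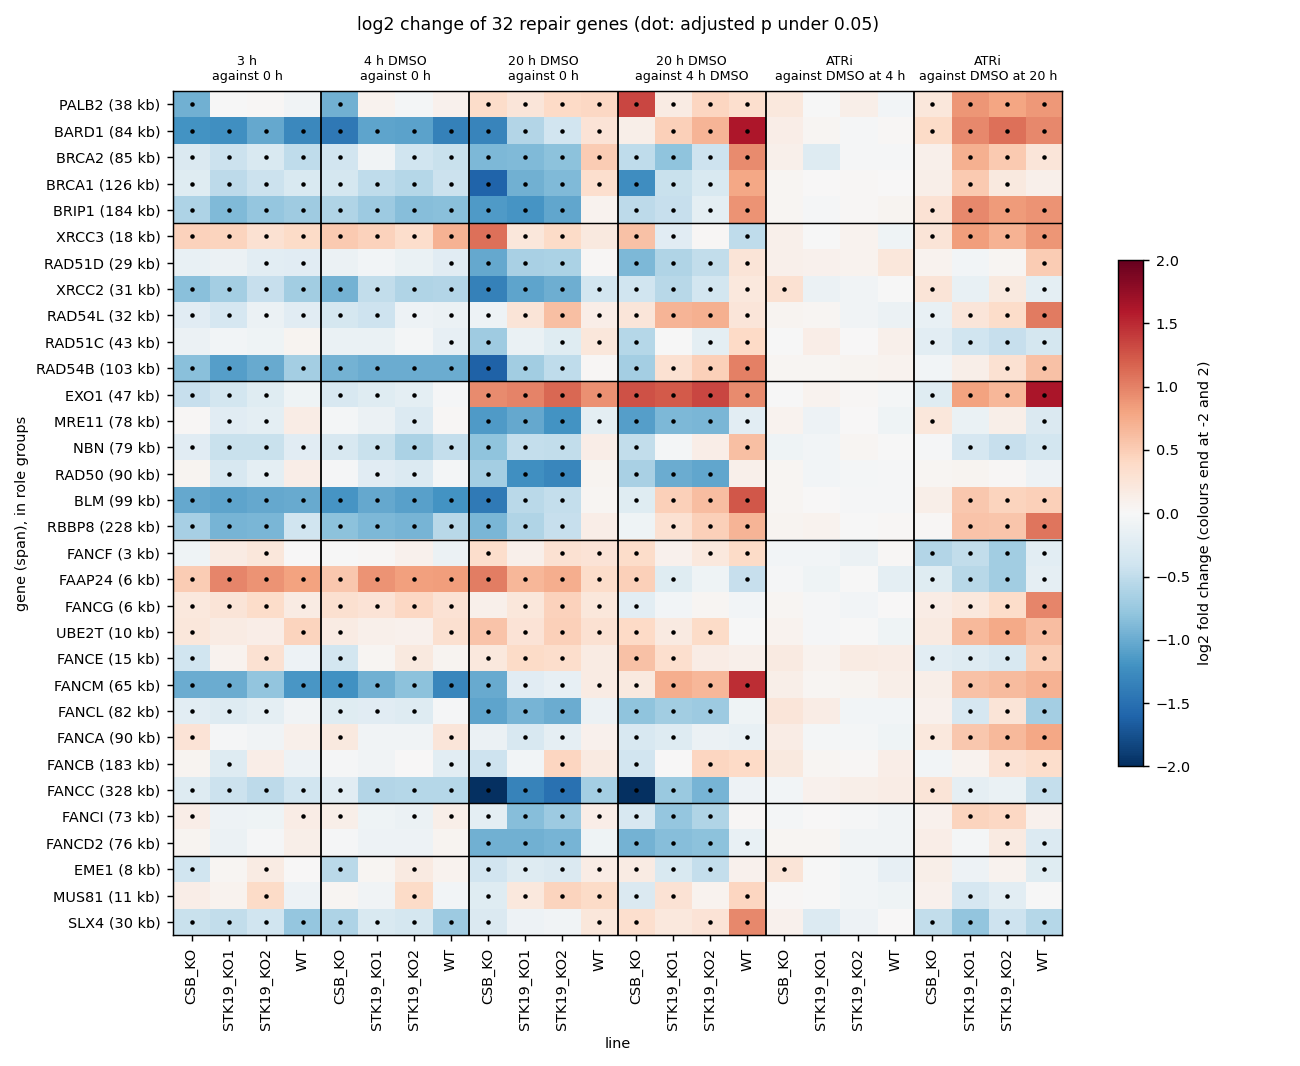
log2 fold change of the 32 genes (rows, in role groups, with gene span in kb) in 6 comparisons for each of the 4 lines (columns); a dot marks an adjusted p under 0.05. At 3 h, 13 genes were called lower in all 4 lines, while at 20 h against 0 h CSB_KO has 23 lower genes and WT has 3.

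By 20 h in DMSO the lines had parted. In CSB_KO, 7 genes were higher (38.3% of all genes tested) and 23 lower (40.5%) than at 0 h, in STK19_KO1 9 higher (32.1%) and 19 lower (37.0%), and in STK19_KO2 11 higher (33.8%) and 20 lower (37.8%). In WT, 16 were higher (30%) and 3 lower (25.4%). The median change of the 32 genes was -0.69 in CSB_KO, -0.41 in STK19_KO1, -0.34 in STK19_KO2 and 0.16 in WT, beside medians of all genes of -0.01, -0.02, -0.02 and 0.05. The WT count of higher genes was 9 without replicate 2 of every group and 9 without replicate 3. FANCC, MRE11 and XRCC2 were lower in all 4 lines (16.3% of all genes tested were), and EXO1, FAAP24, PALB2 and UBE2T were higher in all 4 (15.3%).

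BRCA1 was lower at 20 h in the knockouts and higher in WT. It had 42.7, 39.6 and 42.7 CPM in CSB_KO at 20 h, against 127, 125 and 126 CPM at 0 h, and 155, 151 and 151 CPM in WT at 20 h, against 129, 114 and 118 CPM at 0 h. STK19_KO1 had 42.2, 42.9 and 40.1 CPM at 20 h, against 85.9, 78.5 and 79.8 CPM at 0 h, and STK19_KO2 53.7, 59.04 and 61.4 CPM, against 107, 106 and 107 CPM. The 20 h libraries lay below the 0 h libraries in all 3 knockouts and above them in WT. The changes were -1.60 ± 0.06 in CSB_KO, -0.96 ± 0.06 in STK19_KO1, -0.88 ± 0.06 in STK19_KO2 and 0.34 ± 0.06 in WT (edgeR, adjusted p = 9.94e-07 or less).

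BRCA2, which binds single-stranded DNA at resected breaks, followed the same pattern. It had 17.3, 18.4 and 16.5 CPM in CSB_KO at 20 h, against 33.4, 31.8 and 32.05 CPM at 0 h, and 49.1, 43.8 and 46.9 CPM in WT at 20 h, against 36.2, 29.7 and 32.5 CPM at 0 h. STK19_KO1 had 16.997, 19.5 and 15.7 CPM at 20 h, against 33.05, 28.8 and 33.7 CPM at 0 h, and STK19_KO2 19.7, 19.9 and 19.8 CPM, against 35.1, 36.8 and 32.7 CPM. No group at 20 h overlapped its 0 h group. The changes were -0.90 ± 0.10 in CSB_KO, -0.88 ± 0.09 in STK19_KO1, -0.81 ± 0.09 in STK19_KO2 and 0.51 ± 0.09 in WT (edgeR, adjusted p = 3.58e-06 or less).

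FANCC had the largest fall of the 32 genes in each line. It had 6.96, 5.06 and 6.02 CPM in CSB_KO at 20 h, against 30.6, 30.4 and 31.5 CPM at 0 h, and 17.9, 18.8 and 17.99 CPM in WT at 20 h, against 28.3, 27.9 and 31.2 CPM at 0 h. STK19_KO1 had 12.6, 12.6 and 13.4 CPM at 20 h, against 33.02, 33.2 and 30.999 CPM at 0 h, and STK19_KO2 10.5, 10.6 and 10.6 CPM, against 30.4, 28.6 and 30.4 CPM. All lines fell without overlap, with changes of -2.38 in CSB_KO, -1.33 in STK19_KO1, -1.496 in STK19_KO2 and -0.68 in WT on the log2 scale (edgeR, adjusted p = 1.95e-14 or less).

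XRCC2, which binds RAD51D, had 22.5, 22.9 and 21.1 CPM in CSB_KO at 20 h, against 52.8, 57.6 and 58.7 CPM at 0 h, and 48.9, 44.3 and 47.7 CPM in WT, against 65.6, 55.7 and 59.8 CPM. STK19_KO1 had 30.9 ± 0.588 CPM at 20 h, against 64.1 ± 1.67 CPM at 0 h, and STK19_KO2 29.3 ± 0.909 CPM, against 57.4 ± 2.53 CPM (SD, n = 3 each). It fell in all lines without overlap, with changes of -1.35 ± 0.08 in CSB_KO, -1.05 ± 0.08 in STK19_KO1, -0.97 ± 0.08 in STK19_KO2 and -0.36 ± 0.08 in WT (edgeR, adjusted p = 6.22e-05 or less).

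EXO1, which digests break ends over long distances, rose in every line. It had 229, 231 and 231 CPM in CSB_KO at 20 h, against 119.7, 122 and 118 CPM at 0 h, and 202, 198 and 203 CPM in WT at 20 h, against 117, 99.4 and 104 CPM at 0 h. STK19_KO1 had 244 ± 1.39 CPM, against 123 ± 4.02 CPM at 0 h, and STK19_KO2 272 ± 9.91 CPM, against 123 ± 1.84 CPM (SD, n = 3 each). The changes were 0.94 ± 0.05 in CSB_KO, 0.99 ± 0.05 in STK19_KO1, 1.15 ± 0.05 in STK19_KO2 and 0.91 ± 0.05 in WT (edgeR, adjusted p = 2.76e-22 or less), and no 20 h library overlapped 0 h. EXO1 spans 47.2 kb, and the other genes of 30 to 100 kb rose by no more than 0.61 in any line.

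FAAP24 had 30.3, 31.8 and 30.3 CPM in CSB_KO at 20 h, 25.2 ± 0.941 CPM in STK19_KO1, 25.9 ± 1.91 CPM in STK19_KO2 (SD, n = 3 each) and 25.1, 25.8 and 25.4 CPM in WT, all above their 0 h libraries. The changes against 0 h were 1.02 ± 0.06 in CSB_KO, 0.66 ± 0.06 in STK19_KO1, 0.72 ± 0.06 in STK19_KO2 and 0.37 ± 0.06 in WT (edgeR, adjusted p = 7.31e-07 or less). The rise was largest in CSB_KO, and the difference from WT was called, at 0.65 ± 0.09 (edgeR, adjusted p = 3.02e-09). XRCC3 likewise reached 177, 163 and 174 CPM in CSB_KO at 20 h and 94.2, 105 and 98.3 CPM in WT, with changes against 0 h of 1.10 ± 0.09 and 0.19 ± 0.09, the WT value not called. PALB2, low in CSB_KO at 3 h, stood above its 0 h level at 20 h in all lines, with changes of 0.37 in CSB_KO, 0.24 in STK19_KO1, 0.40 in STK19_KO2 and 0.41 in WT.

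Genes of the break-end complex and the clamp fell late in the knockouts. RAD50 had 94.7, 107 and 101 CPM in CSB_KO at 20 h, 67.04, 59.96 and 67.8 CPM in STK19_KO1, 62.7, 61.6 and 59.4 CPM in STK19_KO2 and 157, 146 and 159 CPM in WT. Against 0 h this was -0.67 in CSB_KO, -1.23 in STK19_KO1, -1.30 in STK19_KO2 and 0.05 in WT, and the WT value was not called. MRE11 changed by -1.14 in CSB_KO, -1.02 in STK19_KO1, -1.19 in STK19_KO2 and -0.19 in WT, all called. FANCD2 changed by -0.97 in CSB_KO, -0.96 in STK19_KO1, -0.92 in STK19_KO2 and -0.09 in WT, and FANCL, the ubiquitin ligase subunit of the core, by -1.05 in CSB_KO, -0.92 in STK19_KO1, -0.99 in STK19_KO2 and -0.11 in WT, with WT not called for either. FANCI changed by -0.19 in CSB_KO, -0.85 in STK19_KO1, -0.72 in STK19_KO2 and 0.13 in WT, all called. RAD51D and RAD51C, the partners of XRCC2 and XRCC3, changed by -1.02 and -0.71 in CSB_KO and by 0.03 and 0.23 in WT, of which the RAD51D value in WT was not called.

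By role at 20 h, 4 of the 5 BRCA genes and partners were lower in each knockout and 4 were higher in WT. The 6 genes of break ends, resection and dissolution had 5 lower and 1 higher, EXO1, in each knockout, against 1 lower and 1 higher in WT. The group of RAD51C, RAD51D, XRCC2, XRCC3 and the motors RAD54B and RAD54L had 5, 3 and 4 of 6 lower in CSB_KO, STK19_KO1 and STK19_KO2, against 1 in WT. The 10 genes of the core complex, anchor and conjugating enzyme had 4 lower in each knockout, against 1 in WT. The shares of all genes called lower were 40.5% in CSB_KO, 37.0% in STK19_KO1, 37.8% in STK19_KO2 and 25.4% in WT, so the core complex group lay near the background in the knockouts. All 3 nuclease genes were lower in CSB_KO and higher in WT: SLX4 changed by -0.28 and 0.23, MUS81 by -0.25 and 0.38, and EME1 by -0.38 and 0.15 in CSB_KO and WT.

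**Figure D2:**
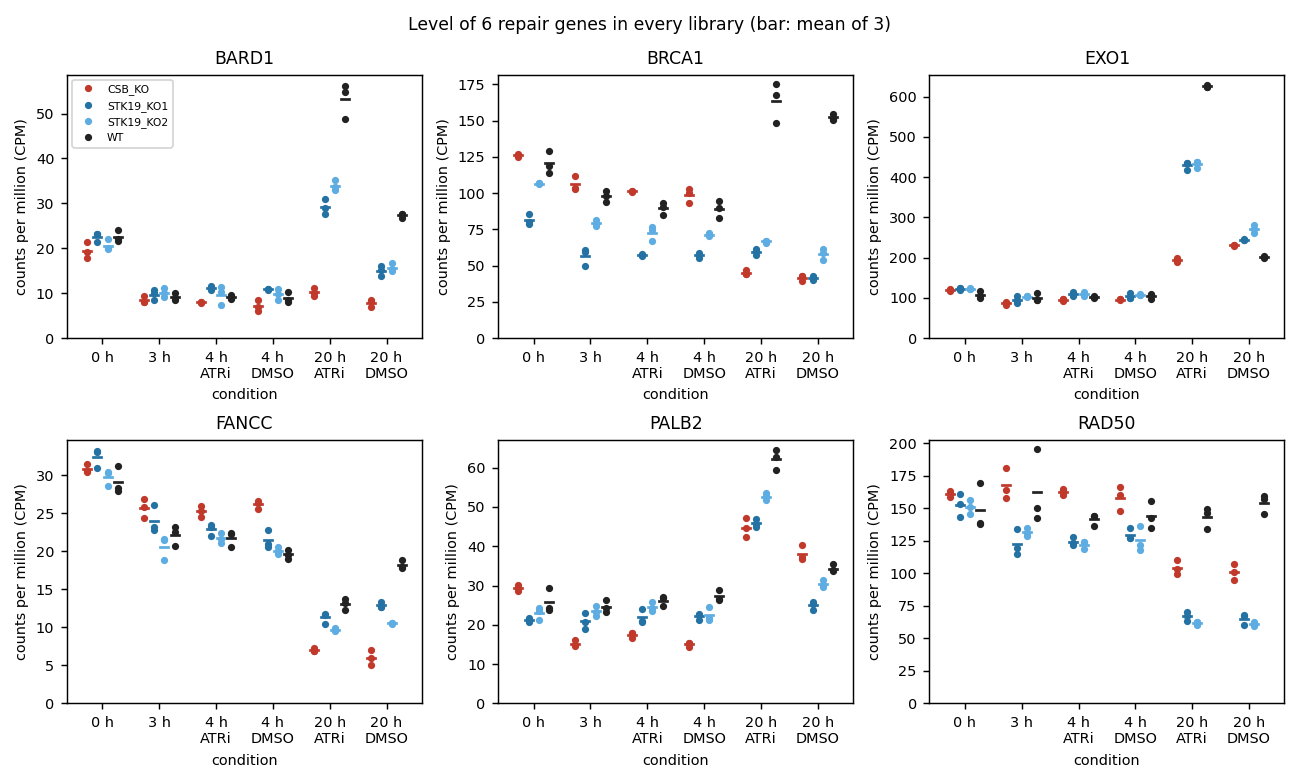
CPM of BARD1, BRCA1, EXO1, FANCC, PALB2 and RAD50 in every library by condition, coloured by line, with a bar at the mean of 3 libraries. BRCA1 at 20 h in DMSO lies at 39.6 to 42.7 CPM in CSB_KO and at 151 to 155 CPM in WT.

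Set against 4 h in DMSO, which uses no 0 h library, 20 h had more genes higher than lower in WT. In CSB_KO 11 genes were higher (34.6%) and 19 lower (37.2%), in STK19_KO1 11 (32.3%) and 15 (33.4%), in STK19_KO2 12 (31.6%) and 13 (34.9%), and in WT 19 (34.1%) and 5 (35.5%). With library totals alone the split was 27 higher and 2 lower in WT and 6 and 20 in CSB_KO, and without the libraries that lay apart WT had 3 lower. The WT count of lower genes was 2 without replicate 2 of every group and 3 without replicate 3. The largest rise in WT was in BARD1, at 1.62 ± 0.10 (edgeR, adjusted p = 3.37e-21). BARD1 changed by 0.11 in CSB_KO, which was not called. STK19_KO1 had a rise of 0.47 and STK19_KO2 one of 0.68.

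FANCM had 10.7, 9.90 and 10.5 CPM in CSB_KO at 20 h, against 10.03, 8.75 and 8.17 CPM at 4 h, and 26.7, 26.9 and 25.1 CPM in WT at 20 h, against 9.81, 9.14 and 9.24 CPM at 4 h. STK19_KO1 had 19.2 ± 1.12 CPM at 20 h, against 11.6 ± 1.32 CPM at 4 h, and STK19_KO2 21.1 ± 0.572 CPM, against 13.4 ± 1.08 CPM (SD, n = 3 each). It rose in all lines, by 0.19 ± 0.08 in CSB_KO, 0.73 ± 0.08 in STK19_KO1, 0.66 ± 0.07 in STK19_KO2 and 1.48 ± 0.07 in WT (edgeR, adjusted p = 0.0302 or less), though the CSB_KO groups overlapped. EXO1 rose above its 4 h level by 1.27 ± 0.05 in CSB_KO, 1.23 ± 0.05 in STK19_KO1, 1.34 ± 0.05 in STK19_KO2 and 0.94 ± 0.05 in WT, with 97.2, 96.3 and 93.9 CPM in CSB_KO and 111, 107 and 96.7 CPM in WT at 4 h.

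FANCC and MRE11 were lower at 20 h than at 4 h in the knockouts. FANCC had 25.6, 26.4 and 26.6 CPM in CSB_KO and 19.5, 20.2 and 19.03 CPM in WT at 4 h, and its changes to 20 h were -2.14 ± 0.07 in CSB_KO, -0.74 ± 0.06 in STK19_KO1, -0.93 ± 0.06 in STK19_KO2 and -0.10 ± 0.06 in WT, with WT not called (edgeR, adjusted p = 0.132). MRE11 had 30.5, 32.6 and 32.002 CPM in CSB_KO at 20 h, against 69.7, 64.8 and 69.5 CPM at 4 h, and 56.2, 52.98 and 56.2 CPM in WT, against 70.96, 62.1 and 58.3 CPM. Its changes were -1.10 ± 0.08 in CSB_KO, -0.91 ± 0.07 in STK19_KO1, -0.91 ± 0.07 in STK19_KO2 and -0.21 ± 0.07 in WT, all called (edgeR, adjusted p = 0.0101 or less), though with library totals alone the WT value was 0.056. PALB2 rose by 1.34 ± 0.07 (edgeR, adjusted p = 2.31e-25) in CSB_KO.

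The difference between the lines at 20 h was tested as an interaction, the change from 0 h in a knockout minus that in WT. For CSB_KO, 3 genes had a positive difference (30.9% of all genes tested) and 24 a negative one (36.3%). For the mean of the STK19 lines, 4 were positive (22.8%) and 21 negative (32.7%). The positive count for the STK19 mean was 2 without replicate 2 of every group. In CSB_KO the largest negative differences were in BRCA1, at -1.94 ± 0.08 (edgeR, adjusted p = 1.50e-28), FANCC, at -1.70 ± 0.09, and RAD54B, at -1.63 ± 0.14. The positive ones were in XRCC3, at 0.91 ± 0.12, FAAP24, at 0.65 ± 0.09, and UBE2T, at 0.26 ± 0.11, though with library totals alone UBE2T was at -0.12. For the STK19 mean the largest negative differences were in BRCA2, at -1.35 ± 0.11 (edgeR, adjusted p = 1.17e-15), RAD50, at -1.32 ± 0.09, and BRCA1, at -1.26 ± 0.07. The largest positive ones were in FAAP24, RAD54L and FANCE, at 0.32 ± 0.08, 0.30 ± 0.05 and 0.20 ± 0.09.

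At 3 h few differences were called. For CSB_KO, 0 were positive (1.48%) and 4 negative (8.30%): PALB2, EME1 (-0.41 ± 0.07), EXO1 (-0.38 ± 0.07) and FAAP24 (-0.28 ± 0.09). At an unadjusted p under 0.05 there were 9 genes in either direction, and DESeq2 called 0 positive and 5 negative. For the STK19 mean, 4 were positive (10.1%) and 8 negative (17.1%), but with library totals alone 12 were positive and 1 negative. In fits of only the groups compared, most of these calls were lost, with 1 negative for CSB_KO, and 0 positive and 1 negative for the STK19 mean. The largest were SLX4 (0.34 ± 0.12), MUS81 (0.33 ± 0.11) and FANCE (0.29 ± 0.09) above WT, and RBBP8 (-0.53 ± 0.09), RAD50 (-0.39 ± 0.09) and RAD54B (-0.37 ± 0.12) below it. Without replicate 2 of every group the CSB_KO count was 2 negative, and the STK19 mean had 1 positive and 3 negative. Without replicate 3 the STK19 mean had 2 positive and 5 negative, and without replicate 1 it had 2 positive.

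Mean shares of mitochondrially encoded RNA at 20 h in DMSO were 3.93% in CSB_KO, 2.81% in STK19_KO1, 3.17% in STK19_KO2 and 2.35% in WT, against 3.34%, 2.89%, 2.88% and 3.30% at 0 h in the same order of lines. In WT the share was 4.27% at 3 h and 4.71% at 4 h in DMSO, and in CSB_KO it was 3.01% and 2.399%. The part of this in the changes of the repair genes was not tested.

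In WT at 3 h, gene span went with the changes among all genes and among the 32. At 3 h in WT the median change of all tested genes under 10 kb was 0.40 and that of genes of 100 to 300 kb was -0.41. Of the 4 repair genes under 10 kb, 2 rose and 0 fell at 3 h in WT, and of the 5 genes of 100 to 300 kb, 0 rose and 4 fell. Of all genes tested in WT, 33.6% were called higher and 28.8% lower. By RefSeq starts RBBP8 (92.6 or 93.2 kb) would leave the class of 100 to 300 kb. BRCA1 (81.1 or 126 kb) would leave it by its shorter distance, and FANCC (218 or 219 kb) would enter it. Yet genes of like span differed widely. In WT at 3 h, BARD1 (84.0 kb) changed by -1.29 and BLM (98.8 kb) by -1.01, while RAD50 (90.3 kb) changed by 0.13 and FANCA (90.3 kb) by 0.10. FANCC, the longest span, changed by -0.40.

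By deposited span, the WT genes at 20 h lay above the median of their span class in 25 of 32 cases, FANCC among them. In CSB_KO 21 lay below it, in STK19_KO1 21 and in STK19_KO2 18. The median distance from the class median was -0.45 in CSB_KO, -0.15 in STK19_KO1, -0.07 in STK19_KO2 and 0.12 in WT. With the 500 tested genes nearest in span in place of classes it was -0.39, -0.14, 0.0035 and 0.11 in the same order. The 17 repair genes of 30 to 100 kb had a median of -0.81 in CSB_KO, -0.54 in STK19_KO1, -0.47 in STK19_KO2 and 0.13 in WT, beside -0.25, -0.10, -0.09 and 0.04 for all genes of that class. The 5 genes of 100 to 300 kb had a median of -1.14 in CSB_KO, beside -1.15 for all genes of that class, and of 0.13 in WT, beside -0.29. FANCC, the sole gene over 300 kb by the deposited span, changed by -0.68 in WT, where the class median was -1.62, and by -2.38 in CSB_KO, where it was -1.45. Its RefSeq starts give 218 or 219 kb, in the class of 100 to 300 kb. Against the medians of that class, -0.29 in WT and -1.15 in CSB_KO, FANCC would lie below in both lines. For the interaction of CSB_KO at 20 h the median distance from the class was -0.61, or -0.43 against the 500 nearest genes.

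**Figure D3:**
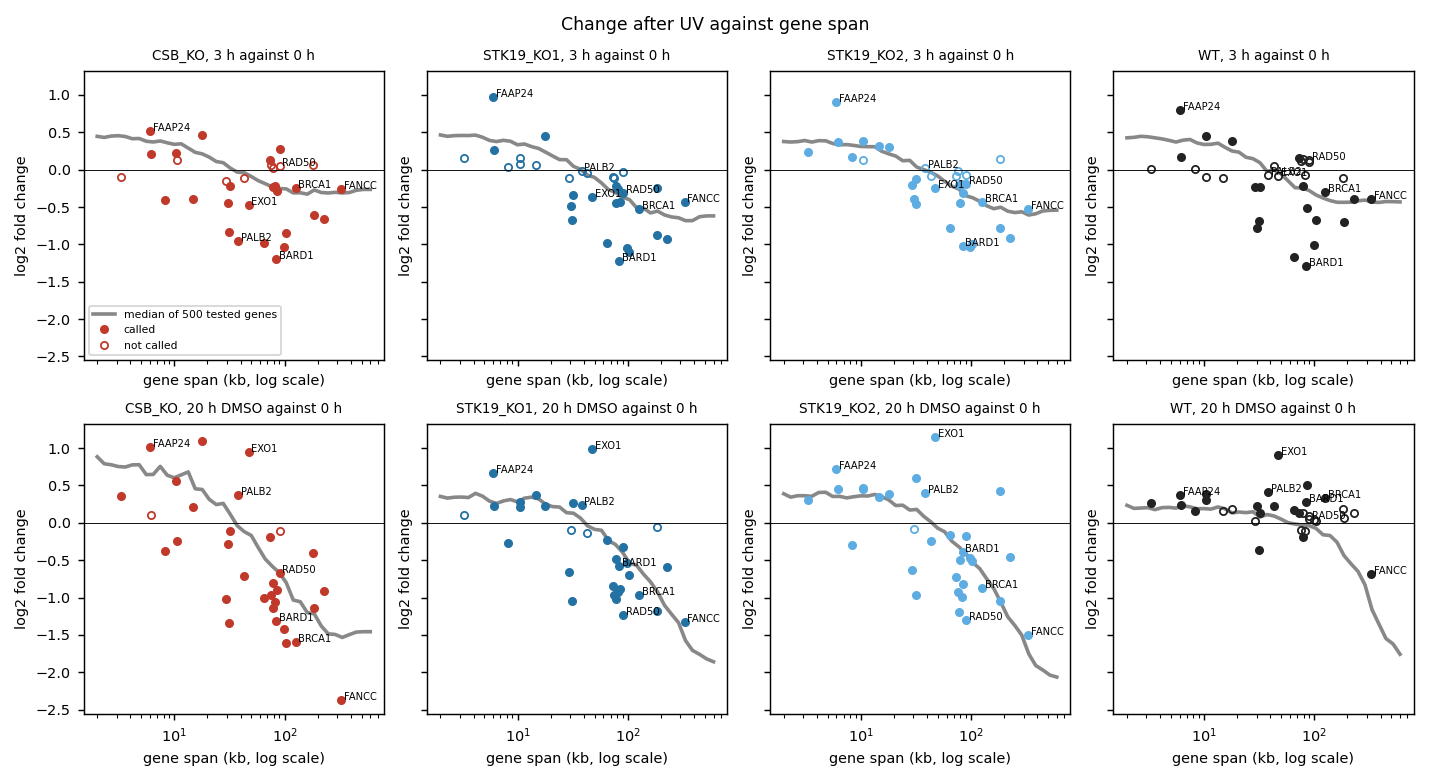
log2 fold change of each of the 32 genes against its span in kb (log axis) at 3 h and at 20 h in DMSO against 0 h, 1 panel per line, with filled points called and open points not called; the grey line is the running median of 500 tested genes. At 20 h, 25 of the WT points lie above the median of their class of deposited span, and 21 of the CSB_KO points lie below it.

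Few of the 32 genes were called with ATR inhibition at 4 h. In CSB_KO 2 of 32 genes were higher (2.70% of all genes tested) and 0 lower (0.278%). These were EME1, the partner of MUS81, at 0.26 ± 0.05 (edgeR, adjusted p = 0.00109), and XRCC2, at 0.31 ± 0.08 (edgeR, adjusted p = 0.0133). XRCC2 had 35.9, 35.99 and 36.8 CPM with ATRi, against 30.7, 28.5 and 28.4 CPM in DMSO, without overlap. The mean mitochondrial RNA share in CSB_KO at 4 h was 3.92% with ATRi, against 2.399% in DMSO, and its part in these changes was not tested. By edgeR none was called in STK19_KO1 (0.776% of all genes higher and 0.129% lower), STK19_KO2 (0.194% and 0.0259%) or WT (2.03% and 0.627%), where 2, 1 and 6 genes had an unadjusted p under 0.05. DESeq2 called 2 lower genes in WT and none in the STK19 lines. Without the libraries that lay apart, WT had 1 higher and 5 lower genes and CSB_KO 5 higher. A fit of only the groups compared gave 7 higher in CSB_KO, and without replicate 2 of every group, or without replicate 3, CSB_KO had 0. All changes in WT lay between -0.19 and 0.22. As interactions, EME1 differed between CSB_KO and WT by 0.42 ± 0.07 (edgeR, adjusted p = 1.43e-04), the sole positive call (2.33%) beside 0 negative (0.873%), with 7 genes at an unadjusted p under 0.05 and the same counts from DESeq2. Without replicate 3 of every group it was not called, and the positive count was 2 without replicate 1, 2 in a fit of only the groups compared and 4 without the libraries that lay apart. For the STK19 mean 0 were called in either direction by edgeR (0.00646% and 0.0% of all genes), with 1 gene at an unadjusted p under 0.05 and 0 by DESeq2.

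At 20 h more of the 32 genes were higher than lower with the inhibitor in every line, though in CSB_KO this turned without replicate 3 of every group. In CSB_KO 9 were higher (14.1% of all genes tested) and 7 lower (17.5%), in STK19_KO1 15 higher (31.5%) and 9 lower (30.1%), in STK19_KO2 20 higher (30.5%) and 7 lower (27.7%), and in WT 17 higher (30.2%) and 11 lower (33.7%). The median change was 0.10 in CSB_KO, 0.09 in STK19_KO1, 0.28 in STK19_KO2 and 0.29 in WT, beside 0.01, 0.02, 0.03 and -0.03 for all genes. In CSB_KO the counts depended on the processing. There were 14 higher genes without the libraries that lay apart, 13 higher and 5 lower with library totals alone, 4 higher and 4 lower without replicate 2 of every group, and 3 higher and 5 lower without replicate 3. BARD1, BRIP1, FANCA, FANCG, PALB2 and XRCC3 were higher in all 4 lines, as were 8.16% of all tested genes. FAAP24, FANCF, RAD51C and SLX4 were lower in all 4, as were 8.78% of all tested genes.

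BARD1 had 11.1, 10.2 and 9.44 CPM with ATRi in CSB_KO, against 8.21, 6.99 and 8.46 CPM in DMSO, and 48.7, 54.8 and 56.2 CPM with ATRi in WT, against 27.7, 26.7 and 27.6 CPM in DMSO. STK19_KO1 had 31.01, 27.6 and 29.1 CPM, against 16.1, 13.8 and 15.1 CPM, and STK19_KO2 33.5, 35.2 and 32.9 CPM, against 14.96, 15.4 and 16.8 CPM. No ATRi library overlapped DMSO, and the changes were 0.38 ± 0.11 in CSB_KO, 0.95 ± 0.10 in STK19_KO1, 1.11 ± 0.10 in STK19_KO2 and 0.96 ± 0.10 in WT (edgeR, adjusted p = 0.00515 or less).

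BRIP1 had 39.3, 33.7 and 35.7 CPM with ATRi in CSB_KO, against 28.99, 29.8 and 30.1 CPM in DMSO, and 125, 149.5 and 143 CPM with ATRi in WT, against 78.1, 70.1 and 77.1 CPM in DMSO. STK19_KO1 had 64.3 ± 4.41 CPM, against 32.96 ± 0.991 CPM, and STK19_KO2 63.8 ± 4.30 CPM, against 35.2 ± 1.51 CPM (SD, n = 3 each). The groups did not overlap in any line, with changes of 0.28 ± 0.08 in CSB_KO, 0.97 ± 0.08 in STK19_KO1, 0.86 ± 0.08 in STK19_KO2 and 0.89 ± 0.07 in WT (edgeR, adjusted p = 0.00358 or less).

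SLX4 and FANCF fell in every line. SLX4 had 13.2, 15.9 and 15.2 CPM with ATRi in CSB_KO, against 22.6, 19.8 and 20.5 CPM in DMSO, and 13.8, 14.6 and 16.01 CPM with ATRi in WT, against 22.2, 21.6 and 21.99 CPM. In STK19_KO1 it had 16.1 ± 1.36 CPM, against 28.01 ± 1.56 CPM, and in STK19_KO2 22.98 ± 0.975 CPM, against 30.7 ± 1.88 CPM (SD, n = 3 each). Its changes were -0.49 ± 0.10 in CSB_KO, -0.80 ± 0.10 in STK19_KO1, -0.42 ± 0.10 in STK19_KO2 and -0.57 ± 0.10 in WT (edgeR, adjusted p = 2.53e-04 or less). FANCF had 11.3, 11.7 and 12.9 CPM with ATRi in CSB_KO, against 20.1, 15.5 and 18.4 CPM in DMSO, and 15.6, 13.8 and 16.4 CPM with ATRi in WT, against 17.8, 18.4 and 16.95 CPM. Its means were 7.16 ± 0.560 CPM in STK19_KO1, against 10.2 ± 0.755 CPM, and 6.89 ± 0.570 CPM in STK19_KO2, against 11.3 ± 0.623 CPM (SD, n = 3 each). The changes of FANCF were -0.58 ± 0.09 in CSB_KO, -0.49 ± 0.09 in STK19_KO1, -0.70 ± 0.10 in STK19_KO2 and -0.21 ± 0.09 in WT (edgeR, adjusted p = 0.0345 or less), and no line overlapped for either gene.

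EXO1 separated CSB_KO from the other lines. It had 198, 195 and 189 CPM with ATRi in CSB_KO, against 229, 231 and 231 CPM in DMSO, and 625, 628 and 623 CPM with ATRi in WT, against 202, 198 and 203 CPM in DMSO. STK19_KO1 had 434, 418 and 435 CPM, against 246, 244 and 243 CPM, and STK19_KO2 422, 438 and 438 CPM, against 272, 282 and 262 CPM. The changes were -0.25 ± 0.05 in CSB_KO, 0.81 ± 0.05 in STK19_KO1, 0.67 ± 0.05 in STK19_KO2 and 1.64 ± 0.05 in WT, all called (edgeR, adjusted p = 1.41e-04 or less). RAD54L, a motor that remodels chromatin during recombination, had 47.98, 50.9 and 49.3 CPM with ATRi in CSB_KO, against 54.6, 59.5 and 50.1 CPM, and 153, 138 and 140.1 CPM in WT, against 67.2, 72.6 and 69.5 CPM. Its changes were -0.15 ± 0.04 in CSB_KO, 0.25 ± 0.04 in STK19_KO1, 0.37 ± 0.04 in STK19_KO2 and 1.04 ± 0.04 in WT, all called, and the WT groups did not overlap while those of CSB_KO did.

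By role, and beside the shares of all genes given above for ATRi at 20 h, the BRCA proteins and partners had 3 of 5 higher in CSB_KO, 5 in each STK19 line and 4 in WT. PALB2 rose by 0.23 in CSB_KO, 0.88 in STK19_KO1, 0.79 in STK19_KO2 and 0.86 in WT. Of the 3 nuclease genes, 1 was lower in CSB_KO and 2 in each of the other lines. The core complex group was mixed in WT, with 6 of 10 higher, such as FANCG (0.98), FANCA (0.78) and UBE2T (0.62), and 4 lower, led by FANCL (-0.68) and FANCC (-0.48). FANCB, which stabilises FANCL in the core, rose by 0.30 in STK19_KO2 and 0.35 in WT. MRE11, NBN and FANCD2 changed in WT by -0.29, -0.37 and -0.27, while RAD50 was not called in any line (-0.11 to 0.05).

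The effect of the inhibitor at 20 h differed between the lines. As interactions against WT, 7 genes were positive (24.7%) and 17 negative (26.9%) in CSB_KO, or 10 and 14 with library totals alone, and 8 were positive (20.7%) and 11 negative (20.2%) for the STK19 mean. Without replicate 3 of every group the STK19 mean had 7 negative. EXO1 led both, at -1.89 ± 0.07 (edgeR, adjusted p = 1.68e-28) for CSB_KO and -0.90 ± 0.06 (edgeR, adjusted p = 6.36e-17) for the STK19 mean. In CSB_KO it was followed by RAD54L (-1.19 ± 0.06) and RBBP8 (-1.05 ± 0.10), and the largest positive differences were in FANCL (0.77 ± 0.12), FANCC (0.73 ± 0.10) and MRE11 (0.52 ± 0.11). For the STK19 mean, FANCE (-0.78 ± 0.09) and RAD54L (-0.73 ± 0.05) followed EXO1, with FANCL (0.64 ± 0.10), BRCA2 (0.38 ± 0.11) and FANCI (0.35 ± 0.06) on the positive side. ATRi and DMSO libraries at 20 h held mean mitochondrial RNA shares of 5.11% and 3.93% in CSB_KO and of 2.31% and 2.35% in WT, and the part of this in the results was not tested.

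**Figure D4:**
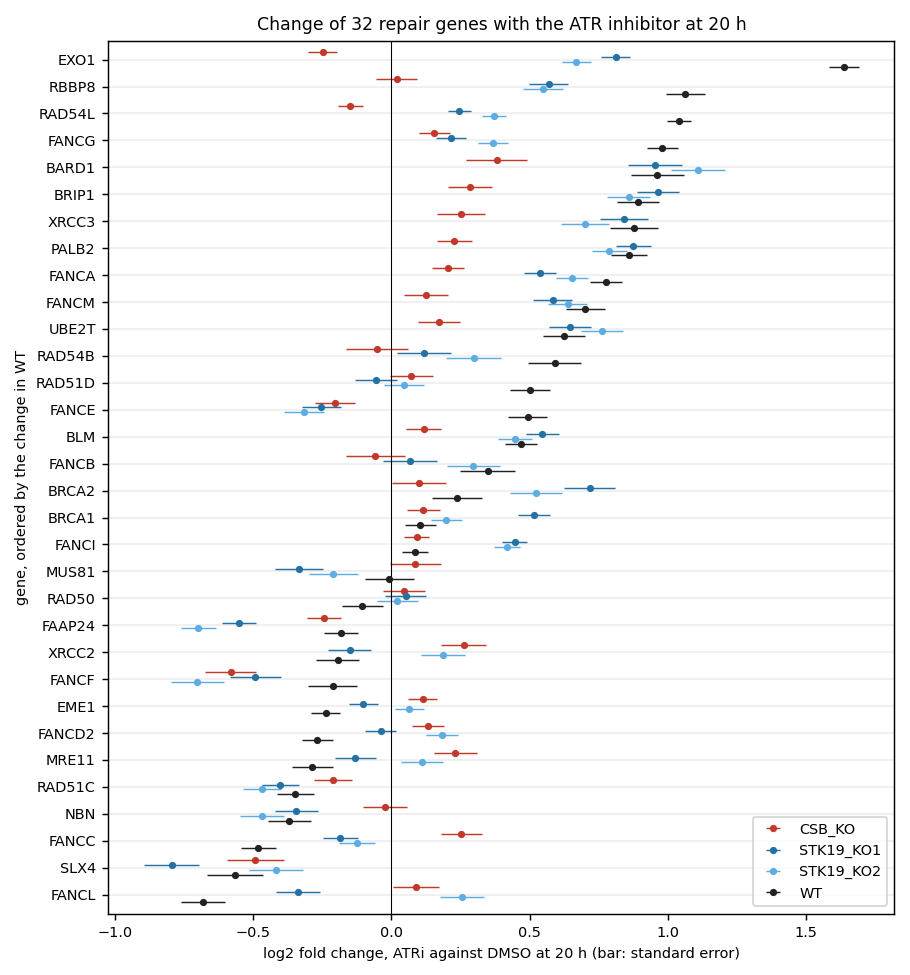
log2 fold change with ATRi against DMSO at 20 h of the 32 genes, ordered by the change in WT, with bars for the standard error and colours for the lines. EXO1 lies at 1.64 in WT and at -0.25 in CSB_KO, while BARD1 lies above 0 in all lines.

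Other genes of the pathway, 50 that are not among the 32, were counted beside them. At 20 h in DMSO against 0 h, CSB_KO had 18 higher and 27 lower, STK19_KO1 12 and 25, STK19_KO2 15 and 24, and WT 23 and 8, where 38.3% of all genes were higher and 40.5% lower in CSB_KO and 30% and 25.4% in WT. The shares were 32.1% and 37.0% in STK19_KO1, and 33.8% and 37.8% in STK19_KO2. PSMC3IP, which acts in homologous pairing, rose by 2.27 ± 0.06 in CSB_KO and 0.97 ± 0.06 in WT, and RMI1, a partner of BLM, by 1.12 ± 0.08 and 0.55 ± 0.08. BABAM2, a scaffold of a BRCA1 complex, which spans 449 kb, changed by -1.27 ± 0.08 in CSB_KO and -2.73 ± 0.09 in WT, and RAD51B, which spans 910 kb, by -0.54 ± 0.14 and -2.31 ± 0.15. At 3 h the 50 genes had 19 higher and 17 lower in CSB_KO, 22 and 14 in STK19_KO1, 20 and 14 in STK19_KO2, and 19 and 12 in WT. At that time 33.6% of all genes were higher and 28.8% lower in WT, and CSB_KO had 32% and 29.3%. The 3 h shares for STK19_KO1 were 29.9% and 30.6%, and those for STK19_KO2 29.1% and 28.5%. In both STK19 lines the higher counts of the 50 genes lay above the shares of all genes. MCM9 changed by -1.15 ± 0.07 in CSB_KO and -1.24 ± 0.07 in WT, and MMS22L by -0.78 ± 0.08 and -0.80 ± 0.08. With ATRi at 20 h, CSB_KO had 16 higher and 9 lower, STK19_KO1 24 and 12, STK19_KO2 23 and 13, and WT 28 and 8, where 14.1% of all genes were higher and 17.5% lower in CSB_KO and 30.2% and 33.7% in WT. The shares with ATRi were 31.5% and 30.1% in STK19_KO1, and 30.5% and 27.7% in STK19_KO2. TOP3A, the topoisomerase that works with BLM, rose by 0.43 ± 0.04 in CSB_KO and 1.38 ± 0.04 in WT, and ABRAXAS1 changed by -0.66 ± 0.14 and -1.35 ± 0.14.

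Cell cycle genes moved too. Of 35 genes of the G1/S transition, ATRi at 20 h raised 4 and lowered 7 in CSB_KO, raised 28 and lowered 1 in STK19_KO1, raised 27 and lowered 1 in STK19_KO2, and raised 31 and lowered 1 in WT. The medians were 0.01, 0.37, 0.28 and 0.78 in that order of lines. MCM7, a subunit of the replicative helicase, rose by 0.17 ± 0.05 in CSB_KO and 0.97 ± 0.05 in WT. Of 30 mitotic genes, CSB_KO had 2 higher and 14 lower, STK19_KO1 9 and 18, STK19_KO2 9 and 14, and WT 6 and 18. Beside both lists, 14.1% of all genes tested were higher with ATRi and 17.5% lower in CSB_KO. These shares were 31.5% and 30.1% in STK19_KO1, 30.5% and 27.7% in STK19_KO2, and 30.2% and 33.7% in WT. At 20 h in DMSO against 0 h, G1/S genes had 23 higher and 12 lower in CSB_KO, 20 and 14 in STK19_KO1, 23 and 8 in STK19_KO2, and 13 and 7 in WT. Of all genes tested, 38.3% were higher and 40.5% lower in CSB_KO in that comparison, and 30% and 25.4% in WT. For STK19_KO1 the shares were 32.1% and 37.0%, and for STK19_KO2 33.8% and 37.8%. The part of cell cycle phase in the changes of the repair genes was not tested.

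Promoter windows are shown for the genes that carry the letters of an E2F site, since E2F factors drive genes of the G1/S transition. RefSeq windows from 250 bases before to 50 after a start (GRCh38.p14) were found for 29 of the 32 genes, 36 windows in all. The letters searched on both strands were TTTCCCGC, TTTGGCGC, TTTCGCGC and TTTGCCGC. They occurred in 5 of 36 windows (13.9%), against 1164 of 35116 windows of all genes (3.315%). The cell cycle letters TTTGAA occurred in 4 of 36 windows (11.1%), against 15.161% of all windows, and CCAAT in 14 of 36 (38.9%), against 34.614%. Overlap between motifs was not examined. The lines below give 60 bases around 1 E2F match for each gene, 5′ to 3′ on the strand of the gene, with the match in capitals.
EXO1 (chr1:241848174-241848233, plus strand): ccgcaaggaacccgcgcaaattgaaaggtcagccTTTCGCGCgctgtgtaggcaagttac
FANCA (chr16:89816786-89816845, minus strand): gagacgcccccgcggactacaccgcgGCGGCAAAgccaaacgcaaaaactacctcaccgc
FANCC (chr9:95317722-95317781, minus strand): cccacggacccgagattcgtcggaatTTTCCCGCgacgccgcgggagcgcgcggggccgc
FANCD2 (chr3:10026407-10026466, plus strand): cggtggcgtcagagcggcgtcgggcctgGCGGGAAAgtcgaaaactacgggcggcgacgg
XRCC2 (chr7:152676112-152676171, minus strand): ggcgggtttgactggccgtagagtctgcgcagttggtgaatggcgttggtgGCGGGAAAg

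Counted in bases from the start, the first base of the match lay at 5 in EXO1, 22 in XRCC2, -2 in FANCD2, -46 in FANCC and -172 in FANCA. FANCC holds 2 matches in its window. With ATRi at 20 h in WT these genes changed by 1.64 (EXO1), 0.78 (FANCA), -0.48 (FANCC), -0.27 (FANCD2) and -0.19 (XRCC2), so that 2 of the 5 were higher and 3 lower. A match of letters is a description and does not show that a factor binds.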

How the data were processed

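RNA of 72 libraries, 3 in each of 24 groups, was compared by line, time after UV and inhibitor. The authors deposited 1 table of estimated counts per gene, all whole numbers; STAR, RSEM, deepTools 3.5.1 and the build GRCh38 are named in the submitters' processing notes. Libraries held 36.5 to 212.9 M counts. Whether replicates were separate cultures or irradiations is not in the labels. The p-values reflect the spread among these libraries alone, which may be technical.

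The counts were fitted as deposited with edgeR 4.0.16 (R 4.3.3), using its quasi-likelihood test over all 72 libraries, TMM factors (0.857 to 1.125) and filterByExpr with a minimum count of 10 and a total of 15, which left 15470 of 19324 genes. The fit gave 35 comparisons, 8 of them interactions, and p-values were adjusted by Benjamini-Hochberg over all genes tested. The procedure was tested on simulated data for ATRi against DMSO at 20 h in WT. There all genes had the same spread and no library lay apart, so that test does not cover such libraries. Alternatives were DESeq2 1.42.0, other scaling and filters, left-out replicates and libraries, a replicate block, a fit of only the groups compared and a fold of at least 1.5. Leaving out the libraries that lay apart was chosen after seeing the data.

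For values in each library, the pair with the largest positive and the pair with the largest negative mean change over lines were named. They were taken from genes called with the same sign in at least 2 lines. BRCA1, BRCA2 and RAD50 were added at 20 h, and FANCD2 is given there by its changes alone. In each interaction the 3 called genes with the largest change each way were named, and other genes were picked after their values were seen. The members and lists were chosen with earlier results of these data known.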

Additional observations from a re-analysis of the deposited data

Results flagged for a closer look

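The values below are tested differences between a knockout and WT in the same contrast, log2 change in the knockout minus that in WT, which is what brought each one here.

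At 3 h against 0 h, CSB_KO differed from WT in 4 genes on the negative side, led by PALB2 at -0.89, EME1 at -0.41 and EXO1 at -0.38. The mean of the STK19 lines differed in 4 genes on the positive side, led by SLX4 at 0.34, MUS81 at 0.33 and FANCE at 0.29, and in 8 on the negative side, led by RBBP8 at -0.53, RAD50 at -0.39 and RAD54B at -0.37. Of all genes tested, 8.3% were negative for CSB_KO, and 10.1% were positive and 17.1% negative for the STK19 mean. Most calls among the repair genes were lost in fits of only the groups compared. With library totals alone nearly all calls for the STK19 mean were positive.

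At 20 h in DMSO against 0 h, CSB_KO had 3 positive differences, XRCC3 at 0.91, FAAP24 at 0.65 and UBE2T at 0.26, and 24 negative ones, led by BRCA1 at -1.94, FANCC at -1.70 and RAD54B at -1.63. The STK19 mean had 4 positive differences, led by FAAP24 at 0.32, RAD54L at 0.30 and FANCE at 0.20, and 21 negative ones, led by BRCA2 at -1.35, RAD50 at -1.32 and BRCA1 at -1.26. Of all genes tested, 30.9% were positive and 36.3% negative for CSB_KO, and 22.8% and 32.7% for the STK19 mean. With library totals alone the UBE2T difference in CSB_KO turned negative.

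For ATRi against DMSO at 4 h, 1 difference was called in CSB_KO, in EME1 at 0.42. For ATRi against DMSO at 20 h, CSB_KO had 7 positive differences, led by FANCL at 0.77, FANCC at 0.73 and MRE11 at 0.52, and 17 negative ones, led by EXO1 at -1.89, RAD54L at -1.19 and RBBP8 at -1.05. The STK19 mean had 8 positive differences, led by FANCL at 0.64, BRCA2 at 0.38 and FANCI at 0.35, and 11 negative ones, led by EXO1 at -0.90, FANCE at -0.78 and RAD54L at -0.73. Of all genes tested at 20 h, 24.7% were positive and 26.9% negative for CSB_KO, and 20.7% and 20.2% for the STK19 mean. The positive counts lay near these shares.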

How the results depend on the processing

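The counts below are of the 32 genes. The shares of all genes in the same refits are not given, so the counts do not show whether all genes moved alike. Scaling factors were computed again in each refit, DESeq2 used its own size factors, and fitting fewer libraries also changed which genes were tested. The comparisons are named by their time, with 0 h for knockout against WT. The cause of each change was not tested, except where fewer samples or a stricter fold set it.

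With DESeq2 the counts were 3 lower in CSB_KO and 6 higher in STK19_KO1 at 0 h, and 8 higher in WT at 3 h. It also gave 2 lower in WT at ATRi 4 h. With RLE factors the counts were 2 lower in CSB_KO and 6 higher in STK19_KO1 at 0 h. With no filter on low counts the counts were 4 higher in STK19_KO1 at 0 h. With a mean log2 CPM of at least 1 the counts were 4 higher in STK19_KO1 at 0 h. With library totals alone the counts were 4 higher in STK19_KO1 at 0 h, and 3 higher in CSB_KO and 2 higher with 22 lower in WT at 3 h. It also gave 3 higher in CSB_KO and 2 higher in WT at 4 h, and 4 higher in CSB_KO at 20 h. It also gave 6 higher in CSB_KO and 2 lower in WT at 20 h over 4 h, and 1 higher in WT at ATRi 4 h. It also gave 12 positive with 1 negative for the STK19 mean for the difference from WT at 3 h, and 2 positive for the STK19 mean for the difference from WT at 20 h. In fits of only the groups compared the counts were 2 higher in CSB_KO and 3 higher in STK19_KO1 at 0 h, and 1 higher in WT at 3 h. It also gave 7 higher in CSB_KO at ATRi 4 h, and 1 negative in CSB_KO and 0 positive with 1 negative for the STK19 mean for the difference from WT at 3 h. It also gave 2 positive in CSB_KO for the difference from WT at ATRi 4 h. Without the libraries that lay apart the counts were 9 higher with 3 lower in CSB_KO at 0 h, and 3 lower in WT at 20 h over 4 h. It also gave 5 higher in CSB_KO and 1 higher with 5 lower in WT at ATRi 4 h, and 14 higher in CSB_KO at ATRi 20 h. It also gave 4 positive in CSB_KO for the difference from WT at ATRi 4 h. With a fold of at least 1.5 added to the call the counts were 0 higher with 0 lower in CSB_KO, 2 higher with 2 lower in STK19_KO1 and 2 higher with 2 lower in STK19_KO2 at 0 h, and 0 higher with 8 lower in CSB_KO, 1 higher with 7 lower in STK19_KO1, 1 higher with 6 lower in STK19_KO2 and 1 higher with 7 lower in WT at 3 h. It also gave 0 higher with 9 lower in CSB_KO, 1 higher with 7 lower in STK19_KO1, 1 higher with 8 lower in STK19_KO2 and 2 higher with 6 lower in WT at 4 h, and 3 higher in CSB_KO, 2 higher in STK19_KO1, 3 higher with 11 lower in STK19_KO2 and 1 higher with 1 lower in WT at 20 h. It also gave 2 higher with 8 lower in CSB_KO, 3 higher with 8 lower in STK19_KO1, 5 higher with 6 lower in STK19_KO2 and 11 higher with 0 lower in WT at 20 h over 4 h, and 0 higher in CSB_KO at ATRi 4 h. It also gave 0 higher with 0 lower in CSB_KO, 7 higher with 1 lower in STK19_KO1, 8 higher with 2 lower in STK19_KO2 and 1 lower in WT at ATRi 20 h, and 1 negative in CSB_KO and 0 positive with 0 negative for the STK19 mean for the difference from WT at 3 h. It also gave 0 positive for the STK19 mean for the difference from WT at 20 h, and 0 positive in CSB_KO for the difference from WT at ATRi 4 h. It also gave 2 positive with 9 negative in CSB_KO and 1 positive with 4 negative for the STK19 mean for the difference from WT at ATRi 20 h.

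Against the 500 genes nearest in span, the median distance of the 32 genes was -0.11 at 4 h in WT, 0.0035 at 20 h in STK19_KO2, -0.075 at 20 h over 4 h in CSB_KO, -0.43 for the difference from WT at 20 h in CSB_KO.

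Leaving out each replicate in turn gave at 0 h 2 to 8 higher in CSB_KO, 1 to 3 lower in CSB_KO, 3 to 11 higher in STK19_KO1, 3 to 6 higher in STK19_KO2. It gave at 3 h 3 to 5 higher in STK19_KO1, 4 to 6 higher in STK19_KO2. It gave at 20 h 9 to 17 higher in WT. It gave at 20 h over 4 h 2 to 5 lower in WT. It gave at ATRi 4 h 0 to 3 higher in CSB_KO. It gave at ATRi 20 h 3 to 11 higher in CSB_KO, 4 to 6 lower in CSB_KO. It gave for the difference from WT at 3 h 2 to 5 negative in CSB_KO, 1 to 2 positive in STK19 mean, 3 to 8 negative in STK19 mean. It gave for the difference from WT at 20 h 2 to 5 positive in STK19 mean. It gave for the difference from WT at ATRi 4 h 0 to 2 positive in CSB_KO. It gave for the difference from WT at ATRi 20 h 7 to 11 negative in STK19 mean.

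Of 638 called changes of single genes, 10 turned sign under any of 11 alternatives, all with library totals alone: FANCI -0.055 at 3 h in WT, FANCG -0.040 at 3 h in WT, FANCI -0.085 at 4 h in WT, FANCI -0.0060 at 4 h in CSB_KO, FANCE -0.096 at 20 h in CSB_KO, MRE11 0.056 at 20 h over 4 h in WT, FANCD2 0.12 at 20 h over 4 h in WT, FANCA 0.11 at 20 h over 4 h in WT, EME1 -0.017 at 20 h over 4 h in CSB_KO, UBE2T -0.12 for the difference from WT at 20 h in CSB_KO. In these refits 6591 values kept direction and call and 417 kept the direction without the call.

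Replicate numbers paired the libraries little on average: deviations of libraries with the same number correlated at 0.0171, against -0.00846 for other numbers. In WT they correlated at 0.256, 0.0656 and 0.0950 between 3 h and 0 h for replicates 1, 2 and 3. Between 4 h DMSO and 0 h in WT the values were 0.184, 0.0732 and 0.116. The replicate block was common to all lines, so it could not take up a replicate effect of WT alone. With the replicate block all 70 counts were the same as without it within 1.5 times, for example 23 lower genes at 20 h in CSB_KO, and all 638 called changes stayed called with their sign. Libraries held 36.5 to 212.9 M counts, and a change that was not called is not shown to be absent at this depth.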
